A study of Mus musculus with 22 samples.

Results

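The female TCPOBOP 27 h comparison set liver pools M15 and M16, from female CD-1 mice that had received TCPOBOP at 3 mg/kg 27 h earlier, against pools M13 and M14 from female mice that had received vehicle, 1% DMSO in corn oil, at the same time. These are 4 of the 22 libraries of the series, and each pool joined nuclear RNA from 3 livers, so that each mean stands for 6 mice. Members were the genes whose authors' mean reached 1 FPKM with TCPOBOP or with vehicle, which held for 10426 of the 24197 genes in the authors' deposited table. FPKM is a fragment count divided by gene length and by library depth. Postn, at 1.00 FPKM with TCPOBOP and 0.841 FPKM with vehicle, lay just inside that limit, and Hpgds, at 0.772 FPKM with TCPOBOP and 0.999 FPKM with vehicle, just outside it. All mice were 7 weeks old and of an outbred strain, injected between 8:00 and 8:45 and killed between 11:00 and 11:45, on the following day for the 27 h groups. A second pair of female vehicle pools, M9 and M10 with 4 livers each, was collected in the same clock window 3 h after injection and served here as a check. The labels name no transgene, and pooling means that differences between single animals cannot be seen.

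TCPOBOP is a synthetic agonist of CAR, the constitutive androstane receptor encoded by Nr1i3. Activated CAR moves into the hepatocyte nucleus, binds DNA with the retinoid X receptor and raises transcription of genes for cytochrome P450 enzymes, conjugating enzymes and exporters that clear drugs and hormones. In mouse liver its activation is also known for hepatocyte enlargement and proliferation. Poly(A) RNA was taken from isolated nuclei, so a value stands for nuclear transcript rather than for the cytoplasmic mRNA pool.

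The response of a gene is given as the log2 quotient of TCPOBOP over vehicle after 0.1 FPKM was added to each mean, less the median of all 10426 genes. Calls rest on the authors' adjusted p for this comparison, at a threshold of 0.05: a called gene is raised or lowered after the sign of its response. The table holds the authors' mean of the pools in a group and no value per pool, so no spread between pools can be given and all tests are the authors'. From the steps between low values, the depth was about 29700000 to 41800000 fragments per TCPOBOP pool, 26900000 to 35800000 per 27 h vehicle pool and 31400000 to 32000000 per 3 h vehicle pool.

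In the authors' deposited table, 728 of the 10426 genes were raised, which is 6.98%, and 627 were lowered, which is 6.01%. Together these were 1355 genes. At least a 2-fold difference was reached by 325 raised and 225 lowered genes, and at least a 4-fold difference by 77 raised and 29 lowered genes. The largest rises were thus larger and more numerous than the largest falls, although the counts of calls were close. A further 181 called genes stayed below 1 FPKM in both groups.

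The 2 female vehicle means were themselves far apart. Centred in the same way, 1372 of the 10426 genes, 13.2%, differed by at least 2-fold between the 27 h and the 3 h vehicle, against 270 genes, 2.58%, between the male vehicle means at these times. Set against the 3 h vehicle instead, 466 of the 728 raised genes, 64.0%, and 352 of the 627 lowered genes, 56.1%, kept the direction of their response. Among the 9071 genes that were not called, 44.2% had the same sign against both vehicles. Both quotients use the same TCPOBOP pools, so that some sharing of sign is built in. For 1112 of these 1355 genes, 82.1%, the 27 h vehicle differed from the 3 h vehicle in the direction opposite to the response. The 27 h vehicle enters these 2 quotients on opposite sides, so that an opposite direction is also in part built in. No such share was computed for the genes that were not called. At 1.5-fold or more against the 3 h vehicle, 284 raised and 151 lowered genes kept their direction. Whether the 27 h vehicle pools or the time after injection account for the distance between the vehicles cannot be told apart. The levels of many genes below are given with both vehicles, and a vehicle value printed with no time is that of 27 h. "Kept" below means the same direction against the 3 h vehicle.

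**Figure D1:**
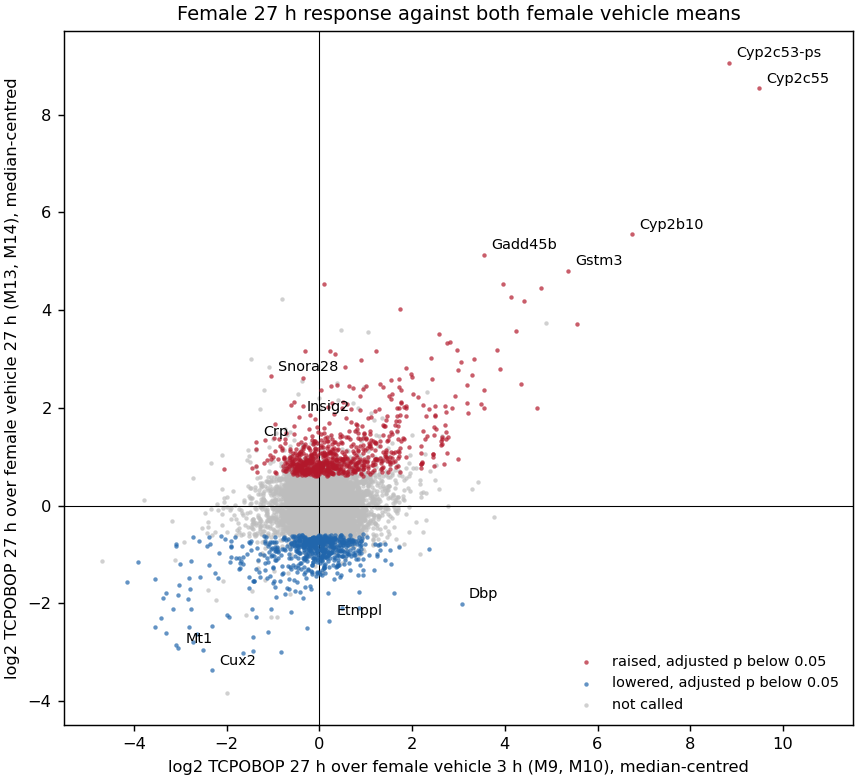
Each point is 1 of 10426 genes, with the centred log2 quotient of TCPOBOP 27 h over the 27 h vehicle on the y axis and over the 3 h vehicle on the x axis; red genes were raised, blue genes lowered and grey genes not called. The drug metabolism genes at the upper right and Mt1 and Cux2 at the lower left are displaced on both axes, while Dbp, Crp, Insig2 and Snora28 change side.

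Of 111 expressed microRNA hairpin loci, 5 were raised and 0 lowered, beside 6.98% of all expressed genes raised, and 3 of the rises were kept. The median response of the 111 was 0.33 against the 27 h vehicle and -0.11 against the 3 h vehicle. The family was picked after its values were seen, and 3 raised loci are described. A microRNA finds its targets through its seed, bases 2 to 8, which is written in capitals in the sequences of these hairpins' arms, shown because these loci were raised. The counts fall on hairpin loci in polyadenylated nuclear RNA and do not measure the mature microRNAs, whose sequences are from RefSeq on GRCm38.p6. Mir802 and Mir365-2 are among the 12 largest kept rises, and Mir1968 was raised as well.
mmu-miR-802-5p: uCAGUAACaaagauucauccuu
mmu-miR-802-3p: aCGGAGAGucuuugucacucag
mmu-miR-365-2-5p: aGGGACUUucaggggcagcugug
mmu-miR-365-3p: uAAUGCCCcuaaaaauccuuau
mmu-miR-1968-5p: uGCAGCUGuuaaggaugguggacu
mmu-miR-1968-3p: aCCACCUCugcagcuguuaag
The 6 arms carry 6 different seeds. The Mir802 locus, on chr16:93369965-93370061 of mm9, had an authors' mean of 9.72 FPKM with TCPOBOP, against 0.527 FPKM with the 27 h vehicle and 2.60 FPKM with the 3 h vehicle. That is 56 to 79 reads with TCPOBOP against 3 to 4 reads with the 27 h vehicle and 16 reads with the 3 h vehicle, summed over a group's pools. In the authors' deposited table the fold for Mir802 was 18.6 (adjusted p = 1.80e-06, edgeR), and males rose as well, with 7.17 FPKM with TCPOBOP and 0.302 FPKM with vehicle. Mir365-2 had 2.12 FPKM with TCPOBOP, was listed at 0 with the 27 h vehicle and had 1.83 FPKM with the 3 h vehicle. Its response against the 3 h vehicle was 0.09, so the rise of Mir365-2 rests on the 27 h vehicle. Mir1968 had 7.19 FPKM with TCPOBOP, 0.752 FPKM with the 27 h vehicle and 2.78 FPKM with the 3 h vehicle.

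CAR targets for oxidation of drugs and hormones led the rises. Of 37 listed CAR and PXR drug metabolism genes, 33 reached 1 FPKM, of which 21 were raised and 3 lowered, and 20 rises and all 3 falls were kept. The shares were 63.6% raised and 9.09% lowered, beside 6.98% and 6.01% of all expressed genes, and the median response was 1.4 against the 27 h vehicle and 2.40 against the 3 h vehicle. This list was chosen with these results known. Cyp2b10, the cytochrome P450 most used as a mark of CAR activity, lies on chr7:26682677-26711643 of mm9. It had an authors' mean of 124 FPKM with TCPOBOP at 27 h, against 2.66 FPKM with the 27 h vehicle and 0.974 FPKM with the 3 h vehicle. At 3 h after TCPOBOP Cyp2b10 already stood at 119 FPKM, so the later level was close to the earlier one. Its response of 5.56 was lower than the 6.74 obtained with the 3 h vehicle, and in males the response was 7.01.

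The Cyp2c genes on chromosome 19 showed another time course. Cyp2c55, which metabolises arachidonic acid, had 132 FPKM with TCPOBOP and 0.273 FPKM with vehicle at 27 h, against 15.1 FPKM with TCPOBOP and 0.0713 FPKM with vehicle at 3 h. Its neighbour Cyp2c53-ps, annotated as a pseudogene, had 65.8 FPKM with TCPOBOP and 0.029 FPKM with vehicle at 27 h, against 2.71 FPKM with TCPOBOP and 0.0329 FPKM with vehicle at 3 h. Both were thus far higher at 27 h than at 3 h after TCPOBOP, whereas Cyp2c29, at 657 FPKM with TCPOBOP at 27 h and 571 FPKM with TCPOBOP at 3 h, was already near its later level. Cyp2c29 had 29.4 FPKM with the 27 h vehicle and 38.8 FPKM with the 3 h vehicle. Of 14 expressed Cyp2c genes, 7 were raised and 2 lowered, beside 6.98% and 6.01% of all expressed genes, and all 9 calls were kept. The Cyp2c family was picked after its values were seen. Cyp2c50 and Cyp2c54 both had a response of 3.18 and Cyp2c37 one of 2.46. Members of this family are close in sequence, and how the authors' counting assigned shared reads is not given in the sources used here.

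Other CAR targets followed the same directions. Cyp3a11, the main hepatic P450 for steroids and many drugs, had 706 FPKM with TCPOBOP, the third highest level of any gene in those pools, against 72.0 FPKM with the 27 h vehicle and 91.9 FPKM with the 3 h vehicle. Its relative Cyp3a25 was the most abundant gene at 1041 FPKM with TCPOBOP and 870 FPKM with vehicle, and was not called. Ces2a, a carboxylesterase that opens ester bonds, had 296 FPKM with TCPOBOP, against 23.5 FPKM with the 27 h vehicle and 5.75 FPKM with the 3 h vehicle. Por, the electron donor of all microsomal P450 enzymes, had 129 FPKM with TCPOBOP, against 51.2 FPKM with the 27 h vehicle and 17.3 FPKM with the 3 h vehicle. Alas1, the first enzyme of haem synthesis, had 147 FPKM with TCPOBOP and 25.4 FPKM with either vehicle. It was the 1 called gene among 12 of haem synthesis and breakdown, 8.33% raised beside 6.98% of all expressed genes. Akr1b7, an aldo-keto reductase, Aldh1a7 and Aldh1a1, which oxidise aldehydes, Cyp1a2, which oxidises caffeine, and Tsku, a secreted proteoglycan, rose with responses of 4.45, 3.01, 1.98, 1.65 and 4.18. The falls were Cyp3a16, Cyp2a22 and Cyp2a4, with responses of -2.86, -1.64 and -1.16, which are described with the sex-biased genes. Cyp2b9 and Cyp2b13, close relatives of Cyp2b10, were not called: Cyp2b9 had 142 FPKM with TCPOBOP and 180 FPKM with vehicle, and Cyp2b13 had 71.6 FPKM with TCPOBOP and 62.8 FPKM with vehicle.

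**Figure D2:**
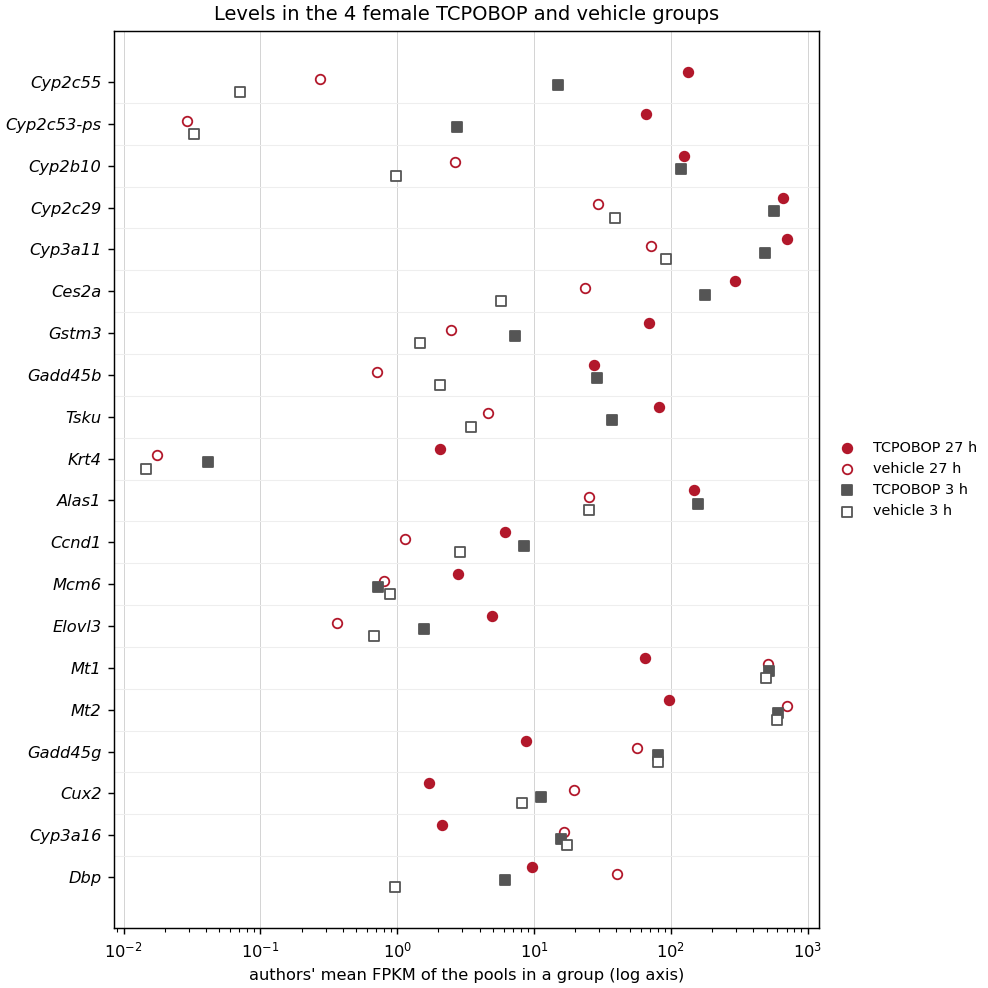
Authors' mean FPKM (log axis) of 20 genes in the female groups, with TCPOBOP 27 h as filled circles, vehicle 27 h as open circles, TCPOBOP 3 h as filled squares and vehicle 3 h as open squares. Cyp2b10, Cyp2c29 and Alas1 stood near the same level at both times after TCPOBOP, Cyp2c55, Gstm3 and Krt4 were higher at 27 h, and Mt1, Mt2 and Gadd45g were low only with TCPOBOP at 27 h among these groups.

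Conjugating enzymes, which attach glutathione, glucuronic acid or sulfate, moved in 1 direction. Of 32 listed, 28 reached 1 FPKM, 15 of these were raised and 0 lowered, and all 15 rises were kept. The raised share was 53.6%, beside 6.98% of all expressed genes. At an adjusted p of 0.05 the same list had 18 raised and 0 lowered members among the 25 that were also expressed in males. Gstm3, a glutathione transferase, had an authors' mean of 69.0 FPKM with TCPOBOP, against 2.48 FPKM with the 27 h vehicle and 1.46 FPKM with the 3 h vehicle. At 3 h after TCPOBOP Gstm3 stood at 7.26 FPKM, so most of its level was reached later. Gstt3 and Gstm1 had responses of 2.08 and 2.05. The glucuronosyltransferases Ugt2b36, Ugt2b34, Ugt2b1 and Ugt1a1, the last of which conjugates bilirubin, had responses of 2.00, 2.00, 1.86 and 1.54. Ugt1a genes share their last exons, and the glutathione transferases of a class are close in sequence, so reads may be split among them.

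Transporters moved both ways. Of 19 expressed transporters, 4 were raised, all kept, and 6 were lowered, of which 5 were kept. That is 21.1% and 31.6%, beside 6.98% and 6.01% of all expressed genes. The raised ones included the export pumps Abcc4, Abcc2 and Abcc3, with responses of 1.65, 1.53 and 1.25. Abcc3, which exports conjugates to the blood, had 77.9 FPKM with TCPOBOP, against 34.3 FPKM with the 27 h vehicle and 11.6 FPKM with the 3 h vehicle. The lowered ones included Slc2a2, the hepatic glucose transporter, Slc13a5, which takes up citrate, Slc22a7, an organic anion carrier, and Abcg5, a part of the sterol exporter, with responses of -1.57, -1.48, -1.06 and -0.93.

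The receptor gene itself was lower. Nr1i3 had an authors' mean of 109 FPKM with TCPOBOP, against 217 FPKM with the 27 h vehicle and 193 FPKM with the 3 h vehicle. In the authors' deposited table the ratio for Nr1i3 was 0.523 (adjusted p = 0.000439, edgeR), and males had 104 FPKM with TCPOBOP and 174 FPKM with vehicle and were also called. Nr1i2, which encodes the related receptor PXR, had 38.7 FPKM with TCPOBOP and 33.6 FPKM with vehicle and was not called, nor were the partner Rxra at 17.1 FPKM with TCPOBOP and 23 FPKM with vehicle and Hnf4a at 41.5 FPKM with TCPOBOP and 44.3 FPKM with vehicle. Of 24 expressed nuclear receptors and liver transcription factors, 2 were raised and 3 lowered, all kept, which is 8.33% and 12.5% beside 6.98% and 6.01% of all expressed genes. Ahr, the receptor for dioxins, and Foxa1, a pioneer factor of liver genes, rose with responses of 1.19 and 1.06. Cebpa and Ppara, regulators of hepatic metabolism, fell with responses of -0.80 and -0.67.

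Genes of cell division stood at low levels, and many passed the limit of 1 FPKM only with TCPOBOP. Of 28 DNA replication genes in the table, 23 reached 1 FPKM, 11 of them only with TCPOBOP. Without that limit, 12 of the 28 were raised and 2 lowered, beside 3.49% and 2.86% of all genes in the table. Mcm6 and Mcm5, subunits of the helicase that opens DNA at replication origins, serve as examples. Mcm6 had an authors' mean of 2.77 FPKM with TCPOBOP, against 0.796 FPKM with the 27 h vehicle, 0.727 FPKM at 3 h after TCPOBOP and 0.882 FPKM with the 3 h vehicle. Mcm5 had 2.46 FPKM with TCPOBOP, against 0.797 FPKM with the 27 h vehicle and 0.312 FPKM with the 3 h vehicle. The 3 groups without a 27 h exposure were low and close together for Mcm6. Pcna, the replication clamp, Uhrf1, which carries DNA methylation through replication, and Chaf1b, a chromatin assembly factor, had responses of 1.63, 2.00 and 1.92. The 2 falls were Mcm10, with 5.43 FPKM with TCPOBOP, 13.3 FPKM with the 27 h vehicle and 2.68 FPKM with the 3 h vehicle, and Tk1, with 33.8 FPKM with TCPOBOP, 65.8 FPKM with the 27 h vehicle and 5.95 FPKM with the 3 h vehicle. Against the 3 h vehicle both had a positive response, at 0.88 and 2.37.

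E2F factors drive replication genes at the start of S phase. Of the listed E2f genes that reached 1 FPKM, E2f2 was raised and E2f1, E2f3 and E2f8 were not called. Whether E2F factors took part in the rises was not tested. The promoters of Mcm5 and Mcm6 are shown as the 250 bases before the RefSeq start on GRCm38.p6, with matches to the E2F words TTTGGCGC, TTTCGCGC, TTTCCCGC and TTTGCCGC, on either strand, in capitals.
Mcm5, chr8:75109259-75109508, plus strand: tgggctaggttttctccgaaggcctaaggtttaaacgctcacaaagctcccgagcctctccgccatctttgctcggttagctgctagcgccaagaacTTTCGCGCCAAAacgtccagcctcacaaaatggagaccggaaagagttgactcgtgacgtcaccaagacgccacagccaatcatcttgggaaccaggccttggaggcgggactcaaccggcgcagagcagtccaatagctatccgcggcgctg
Mcm6, chr1:128359706-128359955, minus strand: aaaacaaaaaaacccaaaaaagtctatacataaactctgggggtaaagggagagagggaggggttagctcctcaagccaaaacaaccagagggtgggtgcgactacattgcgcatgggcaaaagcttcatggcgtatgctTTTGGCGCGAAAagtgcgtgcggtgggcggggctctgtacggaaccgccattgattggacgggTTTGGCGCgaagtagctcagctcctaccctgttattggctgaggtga
Mcm5 held 2 overlapping matches and Mcm6 held 3 matches, 2 of them overlapping. Of the 28 replication genes, 22 had a RefSeq promoter to search. Among called expressed members, raised or lowered, 3 of 10 held a match, namely Mcm5, Mcm6 and Uhrf1. Those without a match were Mcm2, Mcm3, Pcna, Prim1, Chaf1b and the lowered Mcm10 and Tk1. Among expressed members not called 2 of 8 held a match, namely Mcm7 and Rfc3. Of all 27025 genes searched, 583, which is 2.16%, held a match. A match describes these letters and is not evidence of binding.

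Entry into the cell cycle showed the same direction. Of 21 listed G1 genes, 13 reached 1 FPKM, and without that limit 6 of the 21 were raised and 0 lowered. Of all genes in the table, 3.49% were raised and 2.86% lowered without the limit. Ccnd1, the cyclin that opens G1, had an authors' mean of 6.11 FPKM with TCPOBOP and 1.15 FPKM with vehicle at 27 h, against 8.48 FPKM with TCPOBOP and 2.90 FPKM with vehicle at 3 h. E2f2 had 2.84 FPKM with TCPOBOP and 0.549 FPKM with vehicle at 27 h, against 0.511 FPKM with TCPOBOP at 3 h. Ccnd1 was thus above its vehicle at both times, and E2f2 had its highest level at 27 h. Myc and Rbl1, a relative of the retinoblastoma protein, had responses of 0.72 and 0.92. Mitotic genes were nearly all below the limit: 22 of 27 stayed under 1 FPKM in both groups, and without the limit 7 were raised and 0 lowered. Ect2, which directs the cleavage furrow, had 1.18 FPKM with TCPOBOP and 0.107 FPKM with vehicle. Top2a, at 0.984 FPKM with TCPOBOP and 0.264 FPKM with vehicle, passed the authors' test (adjusted p = 0.00110 in the authors' deposited table, edgeR) but fell short of the level. Mki67 had 0.890 FPKM with TCPOBOP and 0.493 FPKM with vehicle in females and was not called, while males had 2.95 FPKM with TCPOBOP and 0.465 FPKM with vehicle and were called.

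The Gadd45 genes, stress sensors that bind cyclin kinases and MAP kinase kinases, did not move together. Gadd45b had an authors' mean of 27.3 FPKM with TCPOBOP and 0.716 FPKM with vehicle at 27 h, against 28.9 FPKM with TCPOBOP and 2.04 FPKM with vehicle at 3 h. Gadd45a rose with a response of 1.81. Gadd45g had 8.71 FPKM with TCPOBOP, against 56.3 FPKM with the 27 h vehicle and 80.6 FPKM with the 3 h vehicle, and 80.7 FPKM at 3 h after TCPOBOP. Its fall was therefore present at 27 h and not at 3 h. Of 17 expressed genes of growth arrest, the p53 response and cell death, 4 were raised, all kept, and 2 lowered, of which 1 was kept. That is 23.5% and 11.8%, beside 6.98% and 6.01% of all expressed genes. Bik, a BH3-only death factor, had 18.6 FPKM with TCPOBOP, 9.71 FPKM with the 27 h vehicle and 3.06 FPKM with the 3 h vehicle. Bmf and Bad, also BH3-only factors, were lower, with 0.393 FPKM with TCPOBOP and 3.98 FPKM with vehicle for Bmf and 1.76 FPKM with TCPOBOP and 8.38 FPKM with vehicle for Bad. Cdkn1a, the p21 kinase inhibitor, had 1.22 FPKM with TCPOBOP, 1.02 FPKM with the 27 h vehicle and 4.30 FPKM with the 3 h vehicle and was not called.

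Metallothioneins, small proteins that bind zinc and copper and whose genes respond to metals and glucocorticoids, were among the abundant transcripts that fell. Mt1, on chr8:96702989-96704227 of mm9, had an authors' mean of 64.5 FPKM with TCPOBOP at 27 h, against 511 FPKM with the 27 h vehicle, 521 FPKM at 3 h after TCPOBOP and 493 FPKM with the 3 h vehicle. Its neighbour Mt2, on chr8:96696518-96697467, had 97.6 FPKM with TCPOBOP at 27 h, against 707 FPKM with the 27 h vehicle, 605 FPKM at 3 h after TCPOBOP and 600 FPKM with the 3 h vehicle. Both vehicles and the early treated group were close together, and the 27 h TCPOBOP group was low. In the authors' deposited table the signed fold change was -7.58 for Mt1 (adjusted p = 1.99e-13, edgeR) and -6.94 for Mt2 (adjusted p = 1.15e-09, edgeR). Males were lowered as well, with 46.5 FPKM with TCPOBOP and 311 FPKM with vehicle for Mt1. Of the 6 other zinc-handling genes expressed, none was called in females, Slc30a10, an exporter, having 18.1 FPKM with TCPOBOP and 15 FPKM with vehicle.

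Sex-biased liver genes moved in both directions, with more rises than falls among male-biased genes and more falls than rises among female-biased genes. Growth hormone, secreted in pulses in males and nearly continuously in females, sets most of these differences in mouse liver. Genes were classed by the 3 h vehicle pools, with at least a 2-fold difference between females and males, so that neither 27 h group entered the class. Of 137 expressed genes higher in females, 18 were raised and 30 lowered, of which 13 and 29 were kept. Of 131 higher in males, 40 were raised and 16 lowered, of which 34 and 2 were kept. Of these 131, 20 reached 1 FPKM only with TCPOBOP and 7 only with vehicle, so the counts over all members of a class, whatever their level at 27 h, are given too: 41 of 180 genes higher in males were raised and 17 lowered, and 19 of 156 higher in females were raised and 31 lowered. The check for kept genes uses the same female 3 h pools as the class, so these counts of kept genes are tied to it. Of the 9529 other genes, 606 were raised, 6.36%, and 527 lowered, 5.53%. In the male 27 h comparison, of 164 expressed genes higher in males 48 were raised and 17 lowered. Of 109 higher in females 17 were raised and 24 lowered there. The excess of rises among male-biased genes and of falls among female-biased genes was thus seen in both sexes. The class higher in males also held Ces2a, Ces2c, Ces2e, Ephx1 and Tsku, which belong to the CAR and PXR drug metabolism list and were raised. Other members of that list were at least 2-fold higher in the female than in the male 3 h vehicle. These were the raised Cyp2c37, Cyp2c54, Cyp3a44 and Gadd45b and the lowered Cyp3a16, Cyp2a22 and Cyp2a4.

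The textbook list also had more rises than falls among male-biased genes and more falls than rises among female-biased genes. Whatever their level, 8 of all 24 male-biased genes were raised and 0 lowered. Of 35 female-biased genes 6 were raised and 10 lowered. Of all genes, whatever their level, 3.49% were raised and 2.86% lowered. The female-biased genes thus lay above the share of all genes in both directions. These 35 genes include the raised Cyp2b10 and the lowered Cyp4a10 and Cyp4a14. In the 3 h vehicle pools these differed between females and males by log2 0.36, 0.59 and 0.08, less than 2-fold. Of the male-biased ones 18 were expressed, 4 of them only with TCPOBOP. Cux2, a female-specific repressor of male-biased genes, on chr5:122310225-122497834 of mm9, had an authors' mean of 1.70 FPKM with TCPOBOP, against 19.4 FPKM with the 27 h vehicle and 8.15 FPKM with the 3 h vehicle. At 3 h after TCPOBOP Cux2 stood at 11.2 FPKM, and the male vehicle at 27 h had 0.945 FPKM, so the treated females were nearer the male level than either female vehicle was. In the authors' deposited table the signed fold change of Cux2 was -10.8 (adjusted p = 9.68e-15, edgeR), the largest fall among kept genes by response. Another female-biased gene that fell was Cyp3a16, with 2.11 FPKM with TCPOBOP, 16.7 FPKM with the 27 h vehicle and 17.4 FPKM with the 3 h vehicle. Cyp2a4, a steroid hydroxylase, had 5.05 FPKM with TCPOBOP, 11.9 FPKM with the 27 h vehicle and 17.9 FPKM with the 3 h vehicle. Acot3, an acyl-CoA thioesterase, and Trim24, a transcriptional cofactor, had responses of -2.27 and -1.07. Against this direction Prom1, a membrane glycoprotein, and Hao2 rose, with 5.37 FPKM with TCPOBOP and 1.90 FPKM with vehicle for Prom1 and 28.6 FPKM with TCPOBOP and 11.1 FPKM with vehicle for Hao2, a hydroxyacid oxidase.

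**Figure D3:**
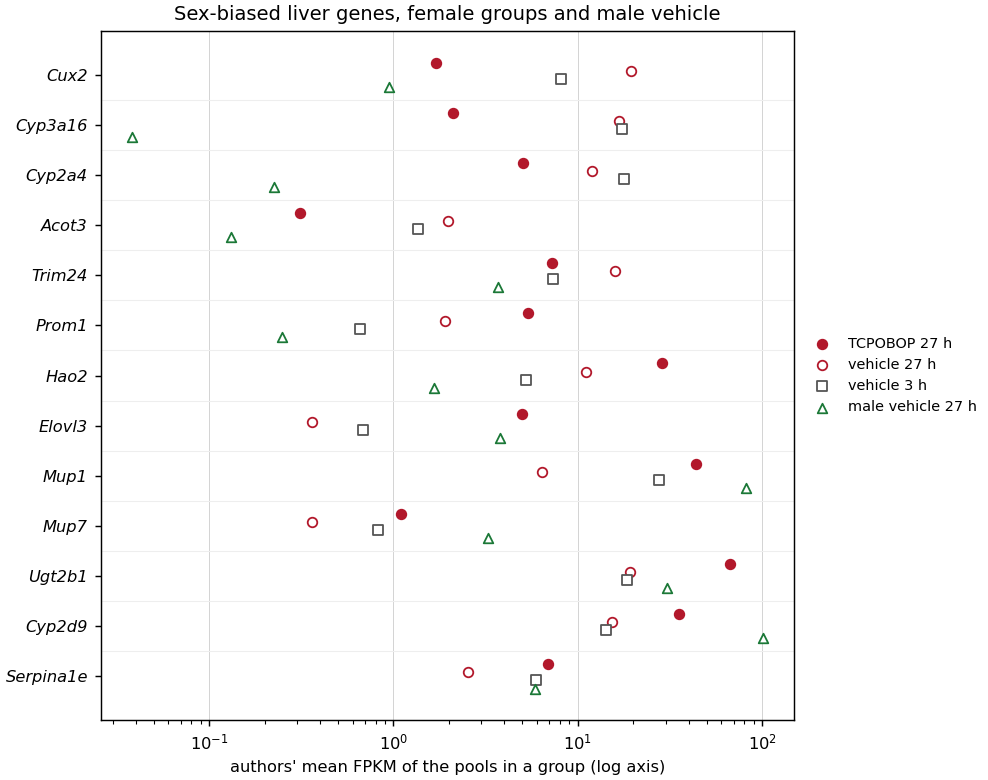
Authors' mean FPKM (log axis) of 13 sex-biased genes with TCPOBOP 27 h as filled circles, vehicle 27 h as open circles, vehicle 3 h as open squares and male vehicle 27 h as triangles. Cux2, Cyp3a16, Cyp2a4 and Acot3 lie between the female vehicles and the male vehicle after TCPOBOP, and Elovl3 and Ugt2b1 lie above the male vehicle.

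Several male-biased genes rose. Elovl3, which elongates fatty acids, had an authors' mean of 4.97 FPKM with TCPOBOP, against 0.364 FPKM with the 27 h vehicle, 0.680 FPKM with the 3 h vehicle and 3.78 FPKM in the male 27 h vehicle. Cyp2d9, a steroid hydroxylase, had 35.6 FPKM with TCPOBOP, against 15.3 FPKM with the 27 h vehicle and 14.1 FPKM with the 3 h vehicle. Of 20 Mup genes, which encode urinary pheromone carriers, 11 were raised and 0 lowered, beside 3.49% and 2.86% of all genes in the table. Of the 20, 14 reached 1 FPKM, 5 of them only with TCPOBOP, and 7 of the 10 rises among the 14 were kept. The median response of the 14 was 1.73 against the 27 h vehicle and 0.24 against the 3 h vehicle. Mup1 had 43.9 FPKM with TCPOBOP, 6.37 FPKM with the 27 h vehicle and 27.6 FPKM with the 3 h vehicle, so most of its distance was to the 27 h vehicle. The Mup family was picked after its values were seen, and its members are nearly identical in sequence. Among growth hormone signalling genes, 1 of 14 was raised and 4 were lowered. That is 7.14% and 28.6%, beside 6.98% and 6.01% of all expressed genes. Socs3 and Cish, feedback inhibitors of STAT signalling, were lower: Socs3 had 6.64 FPKM with TCPOBOP, 19.5 FPKM with the 27 h vehicle and 43.6 FPKM with the 3 h vehicle, and Cish had 9.38 FPKM with TCPOBOP, 16.3 FPKM with the 27 h vehicle and 19.7 FPKM with the 3 h vehicle. Igf1, the growth factor made by the liver, was raised with a response of 0.68 that became -0.37 against the 3 h vehicle.

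Amino acid metabolism gave the highest share of falls of any list. Of 21 expressed genes of the urea cycle and amino acid breakdown, 12 were lowered, 57.1% beside 6.01% of all expressed genes, and 0 were raised, and 6 falls were kept. The methionine cycle lost Bhmt, which remethylates homocysteine, with an authors' mean of 38.4 FPKM with TCPOBOP, 152 FPKM with the 27 h vehicle and 251 FPKM with the 3 h vehicle. Mat1a, which makes S-adenosylmethionine, had 109 FPKM with TCPOBOP, 248.9 FPKM with the 27 h vehicle and 328 FPKM with the 3 h vehicle. Nnmt, which methylates nicotinamide, had 1.61 FPKM with TCPOBOP, 7.68 FPKM with the 27 h vehicle and 10.7 FPKM with the 3 h vehicle. Gnmt, which consumes S-adenosylmethionine, had 251 FPKM with TCPOBOP, 690 FPKM with the 27 h vehicle and 230 FPKM with the 3 h vehicle, and Ass1, of the urea cycle, had 72.6 FPKM with TCPOBOP, 156 FPKM with the 27 h vehicle and 64.8 FPKM with the 3 h vehicle, so these falls were not kept. Cps1, the first urea cycle enzyme, had 111 FPKM with TCPOBOP and 90.0 FPKM with vehicle and was not called.

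**Figure D4:**
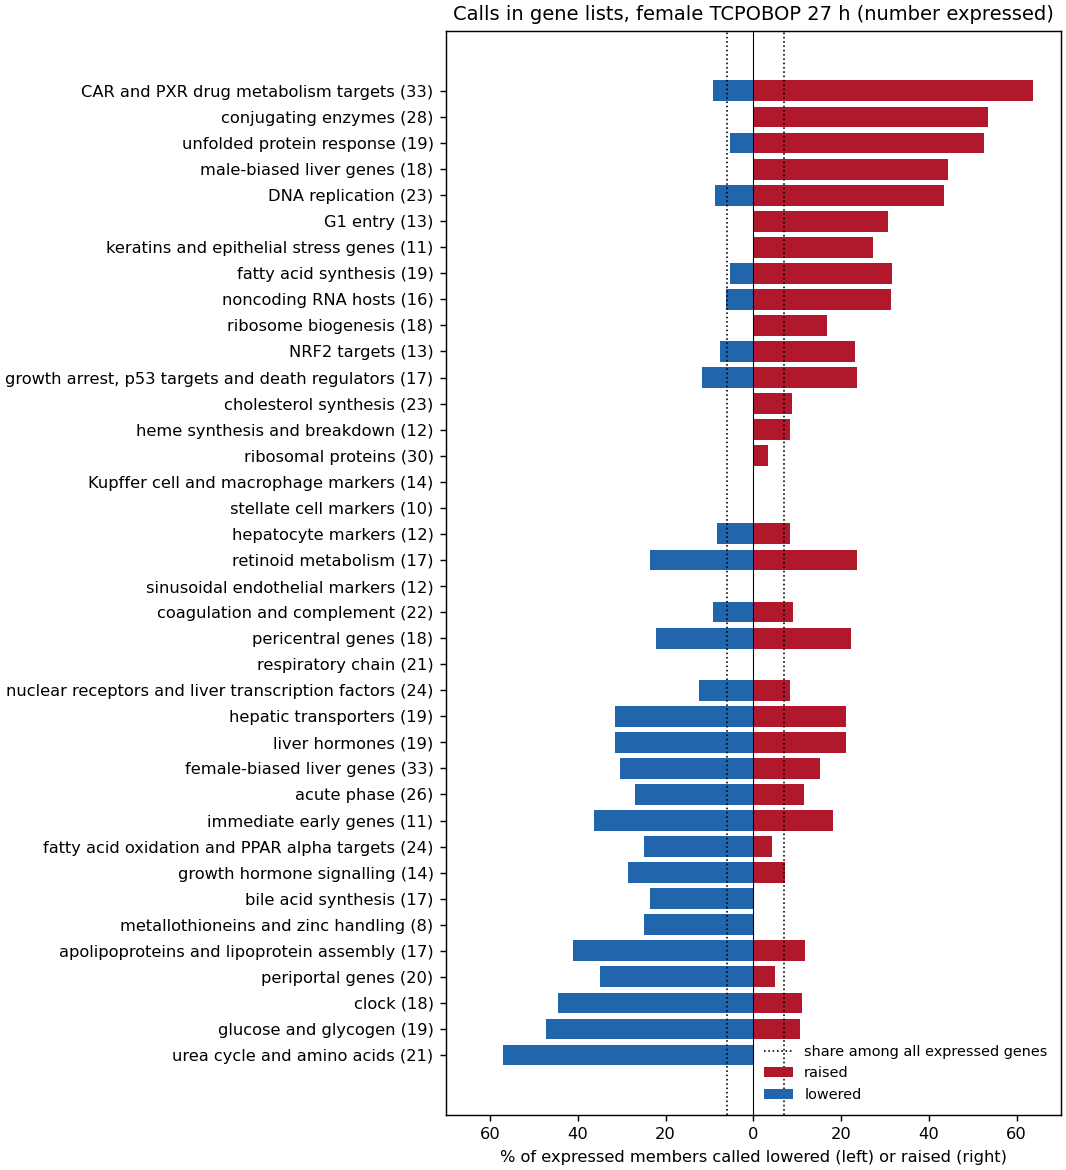
Share of expressed members of each gene list that were lowered (blue, left) or raised (red, right) with TCPOBOP at 27 h, with the number of expressed members in brackets and dotted lines at the shares among all expressed genes, 6.01% lowered and 6.98% raised. Lists with 8 or more expressed members are drawn; drug metabolism, conjugating enzymes and the unfolded protein response reach furthest right, and amino acid, glucose and clock genes furthest left.

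Of 19 expressed genes of glucose and glycogen metabolism, 2 were raised and 9 lowered, and 2 and 7 of these were kept. The shares were 10.5% and 47.4%, beside 6.98% and 6.01% of all expressed genes. Fbp1 and Pck1, enzymes of gluconeogenesis, were lower, with an authors' mean of 42.2 FPKM with TCPOBOP, 110 FPKM with the 27 h vehicle and 87.8 FPKM with the 3 h vehicle for Fbp1, and 68.9 FPKM with TCPOBOP, 174 FPKM with the 27 h vehicle and 210 FPKM with the 3 h vehicle for Pck1. Igfbp1, which is repressed by insulin, had 2.89 FPKM with TCPOBOP, 9.16 FPKM with the 27 h vehicle and 48.9 FPKM with the 3 h vehicle. The 2 rises were Pygl, which breaks down glycogen, and Ppp1r3b, which targets a phosphatase to it, both with a response of 1.10. G6pc and Gys2 fell by 0.72 and 1.09, and neither fall was kept. The periportal list, which shares Pck1 and Ass1 with these lists, had 7 falls among 20 genes, 35%, of which 2 were kept, and 1 rise, 5%. The pericentral list had 4 rises and 4 falls among 18 genes, 22.2% each, all kept, with Cyp2c29 and Cyp1a2 among the rises.

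Lipid genes divided by pathway. Of 19 expressed fatty acid synthesis genes, 6 were raised and 1 lowered, of which 4 rises and 0 falls were kept. These are 31.6% and 5.26%, beside 6.98% and 6.01% of all expressed genes. The rises were Elovl3, Pnpla3, Fads1, Thrsp, Cd36 and Me1. Acaca, Acacb, Acly, Fasn and Scd1 were not called and had responses of -0.32, -0.35, -0.19, -0.35 and -0.60. Pnpla3, a lipid droplet hydrolase and acyltransferase, had an authors' mean of 9.78 FPKM with TCPOBOP, 2.01 FPKM with the 27 h vehicle and 2.14 FPKM with the 3 h vehicle. Fads1, a fatty acid desaturase, had 52.6 FPKM with TCPOBOP, 23.6 FPKM with the 27 h vehicle and 19.6 FPKM with the 3 h vehicle. Srebf1, the regulator of these genes, fell by 1.04 against the 27 h vehicle and had a response of 0.43 against the 3 h vehicle. Of 24 expressed genes of fatty acid oxidation and PPAR alpha targets, 1 was raised, 4.17%, and 6 lowered, 25%, with 1 and 5 kept. The fatty acid hydroxylases Cyp4a14 and Cyp4a10, both PPAR alpha targets and also in the female-biased list, had 4.95 FPKM with TCPOBOP, 25.4 FPKM with the 27 h vehicle and 12 FPKM with the 3 h vehicle for Cyp4a14, and 2.58 FPKM with TCPOBOP, 13 FPKM with the 27 h vehicle and 9.68 FPKM with the 3 h vehicle for Cyp4a10. Fabp1, a fatty acid binding protein, was the 1 rise, with a response of 0.96, and Plin5, which coats lipid droplets, fell with -1.23.

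Cholesterol synthesis had 2 raised and 0 lowered of 23 genes, Idi1 with a response of 1.34 and Insig2 with one of 1.82, which was -0.43 against the 3 h vehicle. The raised share of 8.70% lay near the 6.98% of all expressed genes. In males 11 of the 23 were raised, among them Sqle, which makes squalene epoxide and was not called in females, at 11.7 FPKM with TCPOBOP and 6.27 FPKM with vehicle. In females the 27 h vehicle was itself higher than the 3 h vehicle, with a list median of 1.04 on the log2 scale, and the list median was 1.09 for TCPOBOP over the 3 h vehicle. Bile acid synthesis had 4 falls and 0 rises among 17 genes, which is 23.5% lowered beside 6.01% of all expressed genes, and 2 of the falls were kept. Cyp46a1, which hydroxylates cholesterol, had an authors' mean of 2.09 FPKM with TCPOBOP, 17.7 FPKM with the 27 h vehicle and 5.37 FPKM with the 3 h vehicle. Cyp8b1, which is needed for cholic acid, had 3.74 FPKM with TCPOBOP, 17.4 FPKM with the 27 h vehicle and 9.65 FPKM with the 3 h vehicle. Cyp7a1, the rate-limiting enzyme of bile acid synthesis, had 6.04 FPKM with TCPOBOP, 16.97 FPKM with the 27 h vehicle and 3.98 FPKM with the 3 h vehicle, so its fall was not kept.

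Among 26 acute phase genes, secreted in inflammation, 7 were lowered, all kept, and 3 raised, none kept. Among 22 coagulation and complement genes 2 were raised and 2 lowered, 9.09% each. Of all expressed genes 6.98% were raised and 6.01% lowered. The acute phase list was also far lower in the 27 h vehicle than in the 3 h vehicle, with a median of -1.94 on the log2 scale, beside a median response of -0.50, so the vehicles lay further apart than TCPOBOP and the 27 h vehicle did. Itih3, a hyaluronan-binding protein, had an authors' mean of 677 FPKM with TCPOBOP, 1496 FPKM with the 27 h vehicle and 2067 FPKM with the 3 h vehicle. Crp had 47.3 FPKM with TCPOBOP, 19.97 FPKM with the 27 h vehicle and 113 FPKM with the 3 h vehicle, a rise that was not kept. Among 17 apolipoprotein and lipoprotein assembly genes, 2 were raised, 11.8%, and 7 lowered, 41.2%, with 2 and 5 kept. Apoe and Apoa5 had responses of -0.80 and -0.75, and Apoa4 and Mttp, which loads lipid onto apolipoprotein B, had responses of 0.83 and 0.74. Ang and Rnase4, ribonucleases that share a promoter and part of their locus on chromosome 14, had responses of -2.31 and -2.12, and their reads may not be separable.

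Of 19 expressed genes of the unfolded protein response, 10 were raised, 52.6%, and 1 lowered, 5.26%, but 3 of the 10 rises were kept. Of all expressed genes 6.98% were raised and 6.01% lowered. Hspa5, the main chaperone of the endoplasmic reticulum, had an authors' mean of 54.3 FPKM with TCPOBOP, 29.8 FPKM with the 27 h vehicle and 66.7 FPKM with the 3 h vehicle. Dnajb9, its cofactor, had 5.62 FPKM with TCPOBOP, 2.48 FPKM with the 27 h vehicle and 9.41 FPKM with the 3 h vehicle. The kept rises included Calr, a lectin chaperone, and Sdf2l1, with responses of 1.04 and 1.07. The median of the list was 0.70 against the 27 h vehicle and -0.22 against the 3 h vehicle, so its direction depends on the vehicle. In males, whose pools are separate, 12 of 19 were raised. Chac1, a glutathione-degrading enzyme, was the fall, with 0.177 FPKM with TCPOBOP, 1.53 FPKM with the 27 h vehicle and 1.70 FPKM with the 3 h vehicle.

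Clock genes showed 2 rises and 8 falls among 18, and 2 and 3 of these were kept. The shares were 11.1% raised and 44.4% lowered, beside 6.98% and 6.01% of all expressed genes. Dbp, an output factor of the circadian clock, had an authors' mean of 9.60 FPKM with TCPOBOP and 40.6 FPKM with vehicle at 27 h, against 6.09 FPKM with TCPOBOP and 0.966 FPKM with vehicle at 3 h. The females treated for 27 h thus stood above the 3 h vehicle and below the 27 h vehicle, and the same held for Per3, with 6.33 FPKM with TCPOBOP, 15.3 FPKM with the 27 h vehicle and 1.94 FPKM with the 3 h vehicle, and for Tef, with 28.5 FPKM with TCPOBOP, 61.1 FPKM with the 27 h vehicle and 11.0 FPKM with the 3 h vehicle. Both vehicle groups carry the same clock window on their labels. Per1 was lower against both, with 0.653 FPKM with TCPOBOP, 2.20 FPKM with the 27 h vehicle and 1.78 FPKM with the 3 h vehicle. Immediate early genes had 2 rises, 18.2%, and 4 falls, 36.4%, among 11. Fosl2, a partner of Jun proteins, had 4.77 FPKM with TCPOBOP and 0.836 FPKM with vehicle at 27 h, and Junb had 4.08 FPKM with TCPOBOP, 16.2 FPKM with the 27 h vehicle and 40.1 FPKM with the 3 h vehicle. Egr1 was lowered with a response of -1.51, and Jun was raised with 1.11, which was -0.96 against the 3 h vehicle.

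The remaining largest falls that were kept were Dnaic1, an axonemal dynein chain, and Dio3os and Rubie, which are noncoding RNAs. Cyp26b1, which breaks down retinoic acid, also fell. Dio3os had an authors' mean of 0.285 FPKM with TCPOBOP, 3.03 FPKM with the 27 h vehicle and 1.93 FPKM with the 3 h vehicle. Cyp26b1 had 0.137 FPKM with TCPOBOP, 1.27 FPKM with the 27 h vehicle and 0.993 FPKM with the 3 h vehicle. Krt4, a keratin of squamous epithelia, rose as well, with 2.06 FPKM with TCPOBOP at 27 h, against 0.0174 FPKM with the 27 h vehicle, 0.0416 FPKM at 3 h after TCPOBOP and 0.0147 FPKM with the 3 h vehicle. It was also raised in males, at 1.76 FPKM with TCPOBOP and 0.0115 FPKM with vehicle. The largest calls that changed direction against the 3 h vehicle were the rises of Snord49a, Snora28, Snord87, Mob1a and Mup17, with responses of 3.16, 2.64, 2.60, 2.12 and 2.07, and the falls of Etnppl, Slc2a5, Ell3, Dbp and Tcea3, with responses of -2.35, -2.10, -2.10, -2.01 and -1.79.

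Markers of the cells in the tissue bear on how these bulk values are read, since fewer cells of a type and less RNA per cell cannot be told apart. Hepatocyte markers were abundant, with all 12 above 1 FPKM and a summed authors' mean of 2443 FPKM with TCPOBOP, 2877 FPKM with the 27 h vehicle and 4312 FPKM with the 3 h vehicle. Of these 12, Serpina1a was raised with a response of 1.06 and Fga lowered with -0.64, 8.33% each. Of all expressed genes 6.98% were raised and 6.01% lowered. None of 14 Kupffer cell, 12 sinusoidal endothelial, 10 stellate cell or 4 lymphocyte and neutrophil markers that reached 1 FPKM was called at the authors' adjusted p. Their summed levels were 99.9 FPKM with TCPOBOP, 132 FPKM with the 27 h vehicle and 90.2 FPKM with the 3 h vehicle for Kupffer cells, 116 FPKM with TCPOBOP, 111 FPKM with the 27 h vehicle and 131 FPKM with the 3 h vehicle for endothelium, and 61.3 FPKM with TCPOBOP, 59.9 FPKM with the 27 h vehicle and 65.3 FPKM with the 3 h vehicle for stellate cells. Of the 12 endothelial markers, 10 had a response above 0 and 2 below, with a median of 0.36. In the male 27 h comparison 6 of 12 endothelial, 1 of 13 Kupffer cell and 0 of 10 stellate cell markers were raised. Between the 27 h and the 3 h vehicle the median centred log2 difference was -0.77 for hepatocyte markers and -0.68 for endothelial markers, so the vehicle used for the check differed in marker levels too. Of the bile duct markers 7 of 10 stayed below 1 FPKM, Prom1 being raised, and of the lymphocyte and neutrophil markers 12 of 16 stayed below it. No marker was listed at 0 in both groups. Their part in any result was not tested. Among housekeeping groups, 0 of 21 respiratory chain genes and 1 of 30 ribosomal protein genes were called. Of all expressed genes 6.98% were raised and 6.01% lowered. Of the 30 ribosomal protein genes, 25 had a response above 0 and 5 below, with a median of 0.22.

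The male 27 h comparison, from separate pools, called 16.3% of 10480 expressed genes, 8.71% raised and 7.61% lowered. Of the female calls, 438 raised and 342 lowered genes were called in the same direction in males, which is 60.2% of the raised and 54.5% of the lowered female calls and 48.0% and 42.9% of the male ones. Among raised genes the same call in males was held by 330 of 466 kept genes and by 108 of 262 genes that were not kept, and among lowered genes by 218 of 352 kept and 124 of 275 not kept. Another 7 genes were called in opposite directions, and of these Dbp, Per3 and Slc41a2 were not kept. Irf9, part of the interferon-response factor ISGF3, had an authors' mean of 41.2 FPKM with TCPOBOP, 194 FPKM with the 27 h vehicle and 58.6 FPKM with the 3 h vehicle, and was not called in males, at 9.91 FPKM with TCPOBOP and 12.3 FPKM with vehicle. Adrb3, an adrenergic receptor, had 4.64 FPKM with TCPOBOP and 29.8 FPKM with vehicle in females and 16.8 FPKM with TCPOBOP and 13.4 FPKM with vehicle in males, where it was not called. The difference between the sexes was not tested for any gene, since that needs values per pool.

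**Figure D5:**
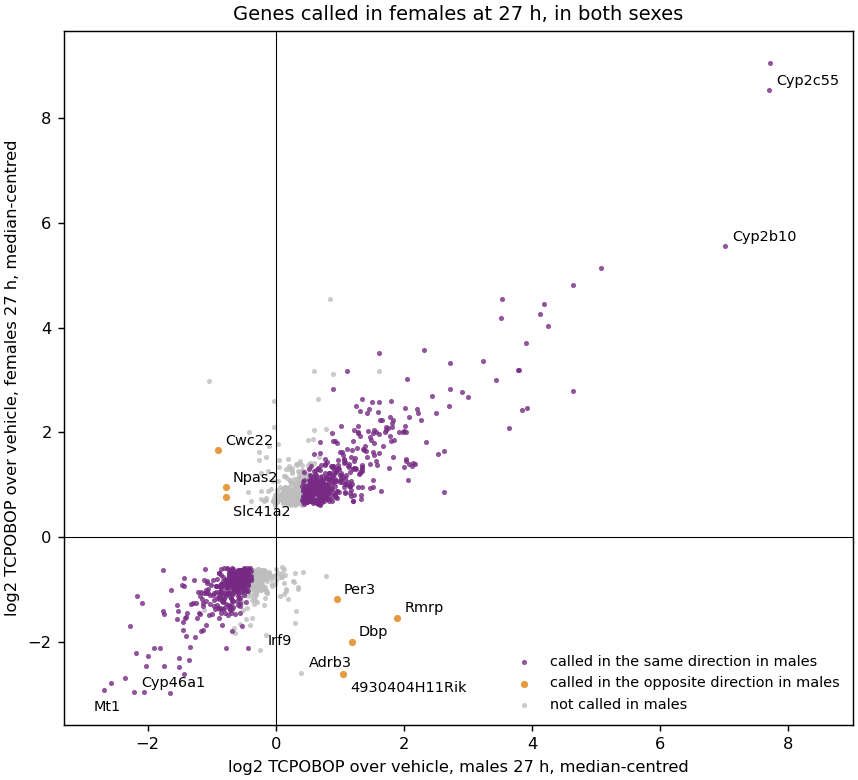
Centred log2 quotient of TCPOBOP over vehicle at 27 h in females (y axis) and males (x axis) for genes called in females and expressed in males; purple genes were called in the same direction in males, orange genes in the opposite direction and grey genes not called. Points run along the diagonal from Mt1 to Cyp2c55, and the 7 orange genes lie off it.

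The female 3 h comparison called 4.51% of 9958 expressed genes, 2.67% raised and 1.84% lowered. Of the genes called at 27 h, 153 raised and 68 lowered ones had the same call at 3 h, which is 21% of the raised and 10.8% of the lowered 27 h calls and 57.5% and 37.2% of the 3 h calls, while 12 had the opposite call.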

How the data were processed

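Nuclear poly(A) RNA was measured with stranded paired-end libraries. The authors' tools, per the submitters' processing notes, were TopHat2 on genome build mm9, HTSeq 0.6.1p1, featureCounts 1.4.6-p5 and edgeR. Counts were over gene bodies and tests were from edgeR, per the file headers. The authors deposited, for each comparison, the mean FPKM of vehicle and treated pools, a ratio and a signed fold change of treated over vehicle, and an adjusted p-value. No value per pool is in the table, so p-values are the authors' and no spread between pools can be shown. The planned edgeR or limma fit needed values per pool and was not run. The authors' ratio exceeds the quotient of their means by a nearly constant log2 0.061 (SD 0.011 across genes).

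From these values the response was computed as described in the report (Python 3.11.15, numpy 2.4.6, pandas 2.3.3, matplotlib 3.10.9), with a pseudocount of 0.1 FPKM and a minimum of 1 FPKM in either group; the median removed was -0.06 for the 27 h vehicle and 0.11 for the 3 h vehicle. The step was tested on simulated data. Fold changes on this scale understate the change of low genes. Depth was read from low values of short genes, of which 90.9% to 93.4% lay within 0.1% of whole reads. The members, the 41 gene lists (767 of 774 symbols matched) and the families were chosen with earlier results of these data known. Named genes were the 12 largest kept rises and falls, the 5 largest not kept in each direction, up to 6 called members of each list, Nr1i3 and Nr1i2, the 8 highest levels and genes with opposite calls; others named were chosen after their values were seen. Alternatives were other thresholds, filters, pseudocounts, no centring and the 3 h vehicle. Numbers shared by pools were not used for pairing.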

Additional observations from a re-analysis of the deposited data

Results flagged for a closer look

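The following genes were called in females at 27 h and called in the opposite direction in another comparison. None of these differences was itself tested, because the authors' deposited table gives group means only, and the female 27 h and 3 h comparisons use separate pools. Between the sexes at 27 h, 7 genes differed in this way. Rmrp, the RNA of RNase MRP, had a response of -1.54 in females and 1.89 in males, with 3.95 FPKM with TCPOBOP and 12.2 FPKM with vehicle in females and 40.3 FPKM with TCPOBOP and 11.29 FPKM with vehicle in males. Dbp had -2.01 in females and 1.18 in males. Per3 had -1.20 in females and 0.95 in males. The uncharacterised 4930404H11Rik had -2.63 in females and 1.05 in males. Cwc22, a splicing factor, had 1.66 in females and -0.90 in males. Npas2, a clock activator, had 0.95 in females and -0.78 in males. Slc41a2, a magnesium transporter, had 0.75 in females and -0.78 in males. Against the 3 h vehicle the female responses of Dbp, Per3 and Slc41a2 changed sign, to the direction called in males. Their opposite calls thus rest on the 27 h vehicle, while the other genes kept their direction.

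Between 27 h and 3 h in females, the response was 2.10 at 27 h and -2.25 at 3 h for BC021614, 1.26 and -1.18 for Keg1, 1.21 and -0.98 for Fabp2, 2.29 and -0.92 for Dntt, 0.75 and -0.76 for Fzd7, and 0.74 and -0.78 for Cldn1, at 27 h and at 3 h in each case. The reverse held for Dbp, at -2.01 at 27 h and 2.61 at 3 h, Per3, at -1.20 and 1.27, Nnmt, at -2.12 and 1.14, and Asap3, at -0.79 and 0.79. Against the 3 h vehicle the 27 h responses of Dbp, Per3, Asap3, Fabp2, Fzd7 and Cldn1 changed sign.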

How the results depend on the processing

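The authors' deposited table gives means only, so leaving out a pool and refitting with another tool were not run. No paired analysis was possible because the columns carry no value per pool. Of 728 raised and 627 lowered genes, 474 and 381 were called at an adjusted p below 0.01, 325 and 225 at 2-fold or more, 406 and 450 at 5 FPKM, and 466 and 352 with the 3 h vehicle. Calls shared with males numbered 780, and were 493 at an adjusted p below 0.01, 200 at 2-fold or more in both and 478 at 5 FPKM; calls shared with females at 3 h numbered 221, and were 141 at an adjusted p below 0.01 and 75 at 2-fold or more. These counts fall because fewer genes qualify. The kept share of 60.4% ranged from 60.02% to 72.4%, and 17 to 22 of 41 lists had a median above 0, against 20. Of 188 named genes, the response lost its call in 24 at an adjusted p below 0.01 and in 28 at 2-fold or more, and changed no direction under the pseudocounts of 1 and 0.01 FPKM or without centring. With the 3 h vehicle 36 changed direction, 86 others moved by 1.5-fold or more and 66 by less, and the cause was not tested. The response there was -0.23 for Cyp3a44, 0.88 for Mcm10, 2.37 for Tk1, 0.76 for Bbc3, -0.96 for Jun, -0.48 for Mup3, -0.37 for Igf1, 0.014 for Gnmt, 0.050 for Ass1, 0.070 for G6pc, 0.94 for Gys2, 0.43 for Srebf1, -0.43 for Insig2, 0.48 for Cyp7a1 and 0.056 for Rdh16. It was -1.37 for Crp, -0.85 for Dnajb9, -0.41 for Hspa5, 3.07 for Dbp, 1.55 for Per3, 1.25 for Tef, -0.10 for Snhg1, -0.30 for Snord49a, -1.04 for Snora28, -0.35 for Snord87, -0.54 for Mob1a and -0.60 for Mup17. It was 0.22 for Etnppl, 0.85 for Slc2a5, 0.49 for Ell3, 1.60 for Tcea3, -2.05 for Slc41a2, -0.25 for Fabp2, 0.35 for Asap3, -0.016 for Fzd7 and -0.20 for Cldn1. Depth limits genes near 1 FPKM and short loci, where a few reads set the value.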

Other observations

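Small nucleolar RNAs and their hosts were among the rises that depended on the vehicle. Of 69 expressed small nucleolar RNAs, which guide ribosomal RNA modification, 9 were raised and 0 lowered, beside 6.98% of all expressed genes raised, and 2 of the rises were kept. Their median response was 0.86 against the 27 h vehicle and -0.35 against the 3 h vehicle, and the family was picked after its values were seen. Snora28 had 6.24 FPKM with TCPOBOP, 0.961 FPKM with the 27 h vehicle and 11.98 FPKM with the 3 h vehicle, and Snord49a had 8.47 FPKM with TCPOBOP, 0.899 FPKM with the 27 h vehicle and 9.68 FPKM with the 3 h vehicle. These stand for 45 to 63 reads with TCPOBOP, 6 to 8 with the 27 h vehicle and 91 to 93 with the 3 h vehicle for Snora28. Of 16 expressed noncoding RNA hosts, 5 were raised and none of these rises was kept, Snhg1 having 41.3 FPKM with TCPOBOP, 18.98 FPKM with the 27 h vehicle and 41.0 FPKM with the 3 h vehicle. The long nuclear RNAs Malat1 and Neat1 were not called, at 256 FPKM with TCPOBOP and 249.3 FPKM with vehicle for Malat1 and 448 FPKM with TCPOBOP and 733 FPKM with vehicle for Neat1.

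Of 48 expressed genes with a Psm symbol, 9 were raised and 0 lowered, beside 6.98% of all expressed genes raised, and 7 of them were kept, beside 64.0% of all raised genes, with a median response of 0.39 against the 27 h vehicle and 0.13 against the 3 h vehicle; the family was picked after its values were seen. Retinoid genes had 4 rises and 4 falls among 17, 23.5% each beside 6.98% and 6.01% of all expressed genes, of which 4 and 2 were kept. Rdh9, a retinol and steroid dehydrogenase, had 2.86 FPKM with TCPOBOP, 9.94 FPKM with the 27 h vehicle and 4.18 FPKM with the 3 h vehicle, and Cyp26a1, which breaks down retinoic acid, was raised with a response of 0.91. Among liver hormones and their carriers, Serpina7, which binds thyroid hormone, had 0.236 FPKM with TCPOBOP, 1.85 FPKM with the 27 h vehicle and 3.51 FPKM with the 3 h vehicle, and Gdf15, a stress hormone, had 5.96 FPKM with TCPOBOP, 3.34 FPKM with the 27 h vehicle and 1.11 FPKM with the 3 h vehicle. Alb had 333 FPKM with TCPOBOP, 389 FPKM with the 27 h vehicle and 972 FPKM with the 3 h vehicle and was not called.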
